A study of Mus musculus with 81 samples.

Results

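Accessible chromatin of mouse embryonic fibroblasts (MEF) was compared between 12h and 6h of reprogramming, in the bulk DNA of a replication-labelling experiment. The members are the peaks of the 2 bulk lists of the nascent arm: 199056 peaks at 12h and 177275 peaks at 6h, each called on the merged libraries of 3 samples, 6 of the 81 samples of the study. A 12h peak with no base in common with a 6h peak is called gained, a 6h peak with no base in common with a 12h peak lost, and the others kept.

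The cells at 12h and at 6h were of the strain Black6-129X1/SvJ at passages 2 to 3 and were heterozygous (het) for R26-M2rtTA, for Oct4GFP and for Col1a1::tetOP-OKSM. They received 2 µg/mL doxycycline, which switches on a transgene at the Col1a1 locus coding for OCT4, KLF4, SOX2 and MYC, together with 50 µg/mL ascorbic acid and LIF. DNA was labelled with 20 µM EdU for 10 min, tagmented by the Tn5 transposase (ATAC-seq), and captured by its EdU. Bulk DNA is what the capture left unbound. A second bulk list at each time comes from the mature arm, whose cells were chased for 2 h in 10 µM thymidine after the label, with 179656 peaks at 12h and 203188 at 6h. The 12h and 6h cells were set beside 36h bulk lists of both arms, 1 bulk list of wild-type 129/Ola embryonic stem (ES) cells at 0h, and 6 samples of a separate 14h experiment on MEF, 3 given 5 µg/mL aphidicolin for 10 h from 4h on and 3 untreated. All 6 of these also received the doxycycline and ascorbic acid above, so that untreated means without aphidicolin. The 36h cells had the same passages, doxycycline, ascorbic acid and EdU label as the 12h and 6h cells, with the same chase in the mature arm. The ES cells were at higher passages and had the same EdU label, and no doxycycline or ascorbic acid is listed for them. A MEF list before doxycycline was not analysed here. Bulk samples mix dividing and non-dividing cells, so that fewer cells with an open site and less opening per cell cannot be told apart.

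ATAC-seq reads DNA that nucleosomes leave free, mostly at promoters and enhancers. In fibroblasts such enhancers are kept open by factors of the AP-1, TEAD and RUNX families. When the reprogramming factors appear, OCT4, SOX2 and KLF4 bind new sites, some of them shared with pluripotent cells, while fibroblast sites close, and epithelial genes such as Cdh1 are among the early genes to be activated.

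Promoters show these classes at the level of sequence. Among the windows of the RefSeq promoter table (GRCm38.p6, the coordinates of mm10), which run from 250 bases before to 50 bases after a start, 121 held a peak gained in both arms and no 6h peak of either, and 72 held a peak lost in both arms and no 12h peak of either. The 4 highest-scoring gained windows of protein-coding genes were those of Cyp2ab1 (a cytochrome P450, chr16:20325355-20325654 (minus strand)), Gstm6 (a glutathione transferase, chr3:107953417-107953716 (minus strand)), Raet1d (a ligand of the natural killer cell receptor NKG2D, chr10:22361644-22361943 (plus strand)) and Tgm3 (a transglutaminase of the epidermis, chr2:130012090-130012389 (plus strand)). The 4 highest-scoring lost ones were those of Unc93a2 (chr17:7385256-7385555 (minus strand)), Plek (pleckstrin of blood cells, chr11:17008669-17008968 (minus strand)), Mmp3 (the matrix protease stromelysin, chr9:7445572-7445871 (plus strand)) and Dpt (the matrix protein dermatopontin, chr1:164796413-164796712 (plus strand)). They are shown to let the 2 classes be read side by side. Capitals mark the AP-1 letters TGANTCA and the KLF letters CCNCNCCC on either strand, and overlapping matches are joined.
Cyp2ab1: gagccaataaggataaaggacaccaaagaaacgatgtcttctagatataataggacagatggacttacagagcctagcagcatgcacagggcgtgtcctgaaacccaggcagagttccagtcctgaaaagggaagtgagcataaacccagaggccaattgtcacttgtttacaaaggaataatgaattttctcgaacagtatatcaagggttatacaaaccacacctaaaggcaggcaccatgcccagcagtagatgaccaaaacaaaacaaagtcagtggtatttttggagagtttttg
Gstm6: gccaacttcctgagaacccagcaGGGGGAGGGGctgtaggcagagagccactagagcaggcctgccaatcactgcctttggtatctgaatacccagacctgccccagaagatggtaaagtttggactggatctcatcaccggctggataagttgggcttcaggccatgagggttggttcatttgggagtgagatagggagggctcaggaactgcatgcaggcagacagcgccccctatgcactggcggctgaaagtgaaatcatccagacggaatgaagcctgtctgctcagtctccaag
Raet1d: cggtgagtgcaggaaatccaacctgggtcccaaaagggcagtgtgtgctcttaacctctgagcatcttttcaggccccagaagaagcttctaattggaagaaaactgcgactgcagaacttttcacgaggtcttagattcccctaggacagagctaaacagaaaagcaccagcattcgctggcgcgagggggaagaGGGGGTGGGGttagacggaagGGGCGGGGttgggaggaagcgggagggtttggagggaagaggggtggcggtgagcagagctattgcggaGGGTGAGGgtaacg
Tgm3: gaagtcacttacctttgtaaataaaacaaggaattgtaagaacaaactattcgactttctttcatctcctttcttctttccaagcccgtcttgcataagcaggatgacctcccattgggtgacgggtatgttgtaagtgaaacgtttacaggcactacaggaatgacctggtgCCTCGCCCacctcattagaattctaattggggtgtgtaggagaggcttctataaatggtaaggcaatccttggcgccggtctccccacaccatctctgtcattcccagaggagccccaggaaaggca
Unc93a2: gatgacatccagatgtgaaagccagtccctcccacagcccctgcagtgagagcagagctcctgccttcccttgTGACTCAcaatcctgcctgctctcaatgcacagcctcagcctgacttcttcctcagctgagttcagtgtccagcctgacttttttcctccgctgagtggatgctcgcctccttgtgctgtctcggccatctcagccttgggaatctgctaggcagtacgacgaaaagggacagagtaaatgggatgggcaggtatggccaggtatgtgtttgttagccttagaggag
Plek: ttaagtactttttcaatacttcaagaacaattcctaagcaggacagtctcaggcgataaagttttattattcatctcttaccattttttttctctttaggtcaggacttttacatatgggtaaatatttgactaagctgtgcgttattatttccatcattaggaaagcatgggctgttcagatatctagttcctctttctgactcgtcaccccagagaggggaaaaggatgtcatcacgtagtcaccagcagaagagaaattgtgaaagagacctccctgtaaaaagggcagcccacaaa
Mmp3: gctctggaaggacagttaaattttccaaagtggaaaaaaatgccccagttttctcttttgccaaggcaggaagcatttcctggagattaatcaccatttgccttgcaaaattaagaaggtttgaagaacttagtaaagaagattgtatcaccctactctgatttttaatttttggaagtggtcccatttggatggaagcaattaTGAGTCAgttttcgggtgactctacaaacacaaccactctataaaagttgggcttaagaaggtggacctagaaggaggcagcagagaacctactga
Dpt: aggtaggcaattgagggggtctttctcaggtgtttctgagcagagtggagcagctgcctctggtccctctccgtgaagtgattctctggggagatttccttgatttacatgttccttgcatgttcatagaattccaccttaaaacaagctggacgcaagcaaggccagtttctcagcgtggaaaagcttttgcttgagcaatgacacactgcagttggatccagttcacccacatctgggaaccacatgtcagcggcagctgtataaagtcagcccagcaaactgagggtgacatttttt

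Among the gained windows Raet1d has 4 KLF matches, Gstm6 2 overlapping ones, Tgm3 1 and Cyp2ab1 none, and none of the 4 has an AP-1 match. Among the lost windows Unc93a2 and Mmp3 carry 1 AP-1 match each and no KLF match, and Plek and Dpt carry neither. Gstm6 and Raet1d belong to families of similar neighbouring genes, so that their reads are less certain. AP-1 letters stood in 10 of 121 gained windows (8.26%, Wilson 95% interval 4.55 to 14.5%) and 13 of 72 lost windows (18.1%, 10.9 to 28.5%), against 7.81% of all 32815 windows. KLF letters stood in 64.5% of gained windows (55.6 to 72.4%) and 34.7% of lost windows (24.8 to 46.2%), against 49.5% of all windows and 68.9% of the windows covered in all 4 lists. The letters ATGCAAAT of the octamer that OCT4 binds were in 0 gained windows and 3 lost windows (4.17%, 1.43 to 11.5%), against 1.74% of all windows, too few to tell the classes apart. GGAATG (TEAD) was in 23.1% of gained and 18.1% of lost windows, and TGTGGT (RUNX) in 23.1% and 22.2%, against 14.7% and 16.8% of all windows. TTGCNNAA (CEBP) was in 10.7% of gained and 13.9% of lost windows, against 10.8% of all windows. A match is a run of letters and not a bound site.

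An ES cell peak covered 88 of the 121 gained windows (72.7%, 64.2 to 79.9%) and 7 of the 72 lost windows (9.72%, 4.79 to 18.7%), against 92.3% of the windows covered in all 4 lists. At 36h, 65 of the gained windows (53.7%) and 3 of the lost windows (4.17%) were covered in both arms, against 96.2% of those covered in all 4 lists. Tgm3 and Gstm6 were covered in both 36h lists and in ES cells, Cyp2ab1 in both 36h lists and not in ES cells, Raet1d in ES cells and in neither 36h list, and Unc93a2, Plek, Mmp3 and Dpt in none of these lists. Of 65 gained windows at protein-coding genes, others belonged to Lef1, a transcription factor of Wnt signalling, Casp8, an initiator caspase, and Tex19.1, a gene of germ and ES cells. The 20 lost ones included Tnmd, the tendon protein tenomodulin, and Itgax, an integrin of myeloid cells. These 5 examples were chosen after their values were seen.

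Of the 12h peaks, 40128 were gained (20.2%, Wilson 95% interval 20.0 to 20.3%), and of the 6h peaks 22340 were lost (12.6%, 12.4 to 12.8%). These intervals cover counting error only, and with 1 merged list for each time the step has no replicate check. The excess of gains followed the lengths of the lists. When the 12h list was cut to its 177275 highest-scoring peaks, 26666 were gained (15.0%) and 29866 lost (16.8%). In the mature arm, where the 12h list is the shorter, 15899 12h peaks were gained (8.85%) and 38739 6h peaks lost (19.1%), and at equal lengths the shares were 14.0% gained and 13.8% lost. A net opening or closing is therefore not shown by these lists.

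The difference between times was larger than that between the arms. With all 4 lists cut to 177275 peaks, 12.7 to 16.8% of peaks had no counterpart at the other time, over 8 comparisons. Some of these also crossed arms, and those within 1 arm gave 13.8 to 16.8%. In the other arm at the same time 7.79 to 12.3% had no counterpart, over 4 comparisons. All comparisons share the same 4 lists and are not independent. The gap is small where the mature arm's 12h list was compared with the nascent arm's (12.3%), which is close to the 12.7% of the 12h nascent arm against the 6h mature arm. No source states on which days the libraries were made, so that a day and a time cannot be told apart.

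**Figure D1:**
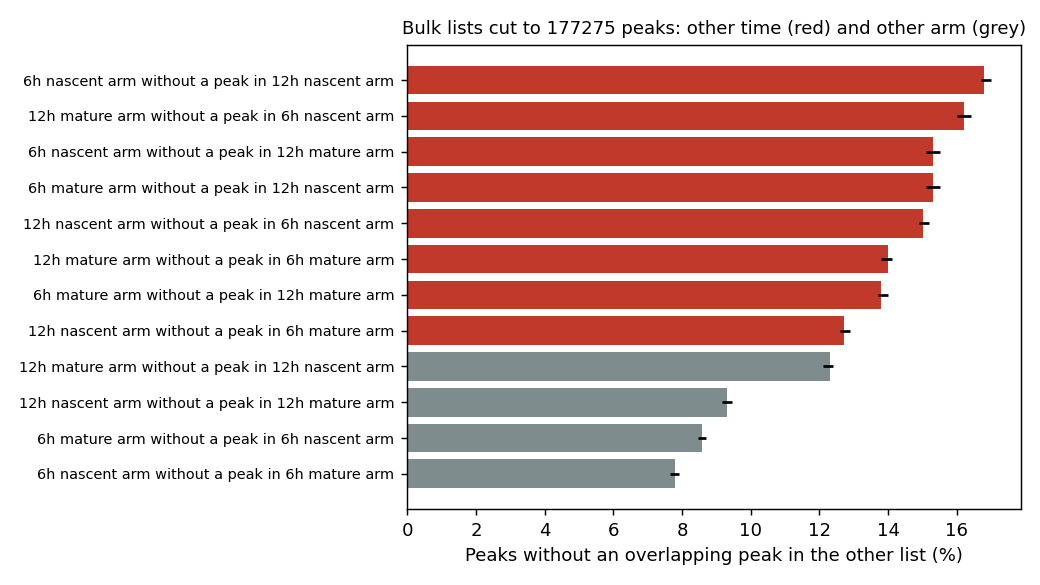
Share of peaks of one bulk list (percent, horizontal axis) without an overlapping peak in another, all 4 lists cut to their 177275 highest-scoring peaks, with 95% Wilson intervals. Comparisons of 12h with 6h (red), within an arm or across arms, lie between 12.7 and 16.8%, and those of the arms at one time (grey) between 7.79 and 12.3%.

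Most gained and lost peaks were weak. The peak caller's score, which is the authors', had a median of 169 in gained peaks against 886 in 12h peaks kept from 6h, and of 142 in lost peaks against 628 in the 6h peaks that were kept. Gained peaks were 183 bp wide at the median and lost peaks 201 bp, against 369 and 393 bp in kept peaks at 12h and 6h. In the lowest score range, 30 to 99, 65.3% of 12h peaks were gained and 43.2% of 6h peaks lost. At scores of 800 and over, 833 peaks were gained (0.98% of such 12h peaks) and 125 lost (0.187% of such 6h peaks). The median score of the whole list was 595 at 12h and 499 at 6h, so that a fixed score may not mean the same strength at both times.

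Sites that appeared by 12h overlapped ES cell peaks far more often than sites that disappeared. The ES cell list covered 30.7% of gained peaks (30.3 to 31.2%) and 4.87% of lost peaks (4.60 to 5.16%), a difference of 25.9 points (25.3 to 26.4). Kept peaks lay near the gained ones, with 32.7% of the 12h list and 33.1% of the 6h list. At equal lengths the shares were 33.5% of gained and 6.85% of lost peaks, and in the mature arm at equal lengths 28.6% and 7.71%. Away from gene ends they were 29.7% of gained and 4.71% of lost peaks.

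The ES cell share of gained peaks was higher at higher scores. It was 25.7% at scores of 30 to 99, 32.9% at 200 to 399 and 52.5% at 800 and over. Lost peaks went the other way, with 5.64% at scores of 30 to 99, 4.64% at 200 to 399 and 1.60% at 800 and over (0.44 to 5.65%). Kept 12h peaks of like score had fewer ES cell peaks than gained ones, 13.6% at scores of 30 to 99 and 17.7% at 200 to 399. Kept 6h peaks, by their score at 6h, stood nearer to the gained ones, with 26.3% at 30 to 99 and 26.4% at 200 to 399. Against the 50000 highest-scoring ES cell peaks the gap between gained and lost narrowed to 11.1 points.

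**Figure D2:**
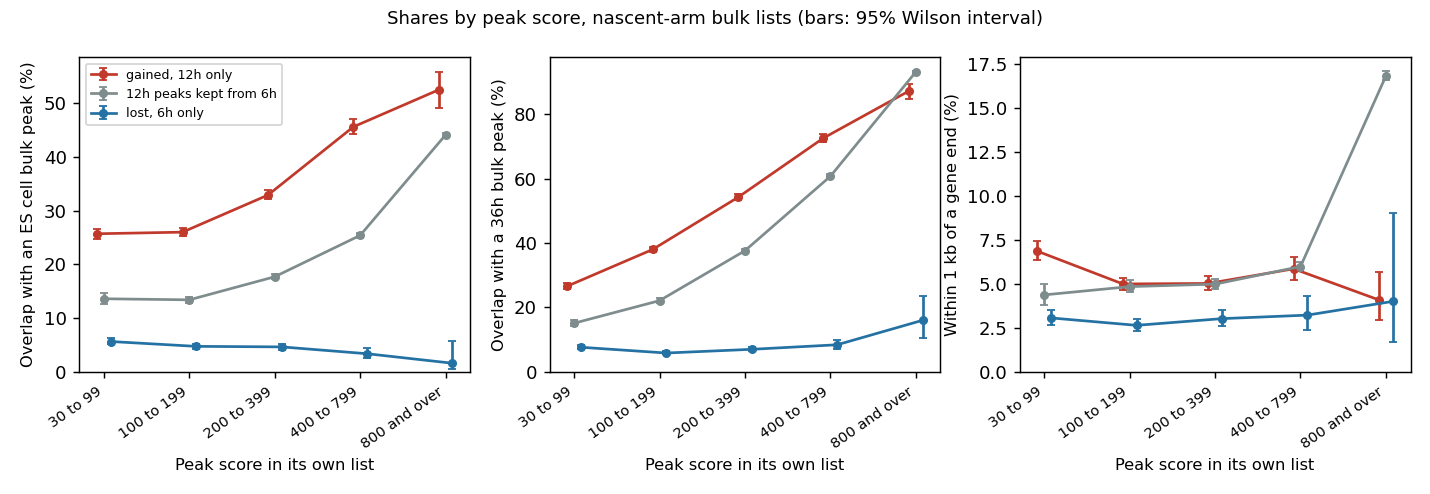
Share of gained (red), kept 12h (grey) and lost (blue) peaks of the nascent arm that overlap an ES cell bulk peak, overlap the 36h bulk list of the same arm, or lie within 1 kb of a gene end, by the peak's score in its own list, with 95% Wilson intervals. The ES cell share of gained peaks goes up to 52.5% at scores of 800 and over while that of lost peaks stays at or below 5.64%.

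Both classes lay mostly away from gene ends. Within 1 kb of either end of a protein-coding gene model were 5.48% of gained peaks (5.26 to 5.71%) and 2.89% of lost peaks (2.68 to 3.12%), against 11.4% of kept peaks at each time. The difference of 2.59 points was 1.86 points at equal lengths and 2.38 points in the mature arm at equal lengths. Kept peaks of scores below 800 had shares of 4.37 to 5.98% at 12h, so that the high share of kept peaks came with scores of 800 and over (16.8%). Inside gene models away from their ends were 49.3% of gained and 47.6% of lost peaks, and over 50 kb from any gene model 20.5% of gained and 28.1% of lost peaks.

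Later samples, which played no part in forming the classes, held many gained sites and few lost ones. At 36h the nascent arm's bulk list held 45.2% of gained and 6.83% of lost peaks, and the mature arm's 44.1% and 7.54%, against 69.3 and 73.3% of kept 12h peaks. Gained peaks with an ES cell peak were in both 36h lists in 50.5% of cases (49.6 to 51.4%), and those without one in 31.6% (31.0 to 32.1%). Of lost peaks with an ES cell peak 16.3% were in both 36h lists, and of those without one 4.49%.

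The aphidicolin 14h libraries, from cells given an inhibitor of DNA replication, held 43.9, 53.5 and 50.4% of gained peaks and 6.66, 9.91 and 8.62% of lost peaks. The untreated 14h libraries held 34.2, 34.2 and 29.9% of gained peaks and 2.73, 2.61 and 1.80% of lost peaks. Each of the 6 libraries held a larger share of gained than of lost sites, and the ranges are far apart. In untreated libraries the difference averaged 30.4 ± 1.97 percentage points (SD, n = 3, two-sided exact sign-flip test, p = 0.25, the smallest that 3 libraries allow). The aphidicolin lists were longer, with 148292 to 163947 peaks against 116939 to 129546 in untreated libraries, and kept 12h peaks were found in 75.3 ± 2.68% of cases against 63.3 ± 1.74% (SD, n = 3 each).

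The same shares were taken over the peaks that both arms gained or lost. There were 10002 12h peaks present in the mature arm's 12h list and in neither 6h list, and 12880 6h peaks present in the mature arm's 6h list and in neither 12h list. ES cell peaks covered 36.7% of them when gained (35.8 to 37.7%) and 3.83% when lost (3.51 to 4.17%). The 36h lists held 69.8 and 65.9% of the gained peaks and 0.916 and 1.23% of the lost ones. Untreated 14h libraries held 46.7 ± 2.46% of gained and 1.16 ± 0.374% of lost peaks (SD, n = 3). Requiring both arms keeps the sites that were called again, so that these shares are not free of that choice.

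**Figure D3:**
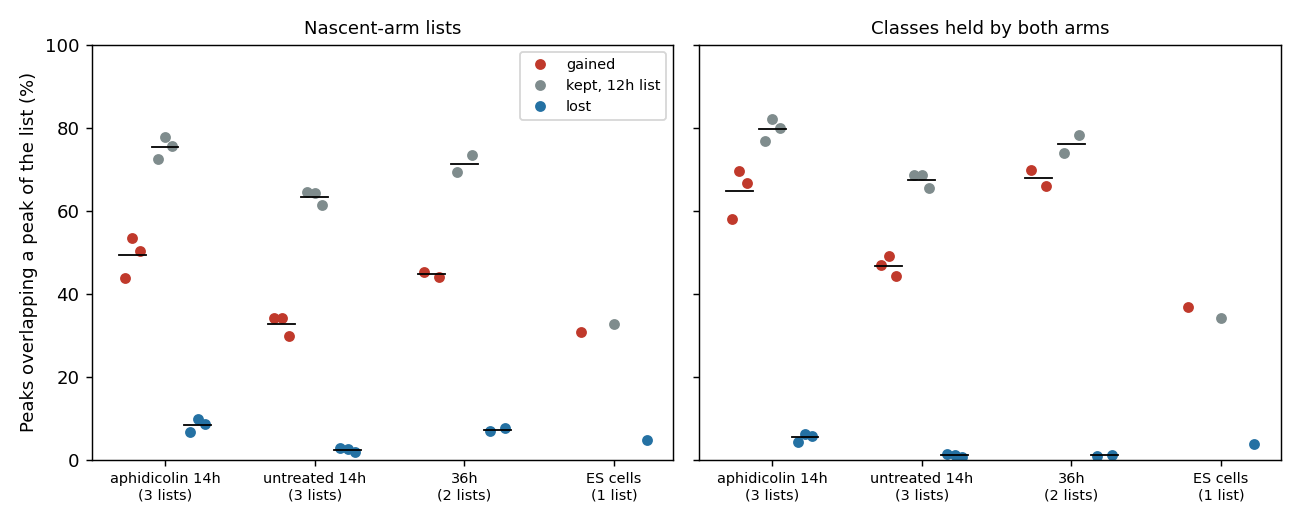
Share of gained (red), kept 12h (grey) and lost (blue) peaks that overlap a peak in each aphidicolin and untreated 14h list, in the 36h bulk lists of both arms and in the ES cell bulk list, for the nascent-arm classes (left) and for classes held by both arms (right); each point is 1 list and black lines are means. Untreated 14h lists hold 29.9 to 34.2% of gained and 1.80 to 2.73% of lost peaks.

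The 10 strongest peaks gained in both arms had scores of 1280 to 1753. The first lay inside Ptprf (chr4:118247377-118247613), a receptor tyrosine phosphatase, 39164 bp from an end of the gene model. In the 14h count table its region had 8.09, 8.88 and 7.76 CPM (counts per 1000000 counts of the library) with aphidicolin and 9.95, 9.78 and 9.45 CPM untreated, so that the groups did not overlap. The one inside Glis1 (chr4:107550644-107550904), a zinc finger factor known to promote reprogramming, had 6.53, 6.08 and 6.20 CPM with aphidicolin and 9.95, 9.44 and 9.01 CPM untreated, again without overlap. Of the 9 of these peaks with a region in the table, 5 were lower in all 3 aphidicolin libraries than in all 3 untreated ones, 4 overlapped and 0 were higher. The same shares over all regions of the table were not computed, so that these counts cannot be read as particular to the strongest gained peaks. Among the overlapping, the peak inside 2700049A03Rik had 7.80, 6.98 and 7.37 CPM with aphidicolin and 5.85, 7.54 and 6.46 CPM untreated, and that near Mrgbp 2.37, 3.47 and 2.85 CPM with aphidicolin and 2.35, 2.47 and 2.45 CPM untreated. The peak 113 bp from Arid5a (chr1:36324150-36324335), an RNA-binding regulator of inflammatory transcripts, was the only one of the 10 within 1 kb of a gene end. The other 7 were nearest to Ercc3, Mrgbp, 2700049A03Rik, Ccl20, Kirrel, Dctn2 and Nt5m. Of the 10, 6 overlapped an ES cell peak, 7 were in both 36h lists and 9 in all 3 untreated 14h lists, and the exception, 15340 bp from the chemokine gene Ccl20, was in none. Over all peaks gained in both arms these shares were 36.7, 59.3 and 33.5%.

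The 10 strongest peaks lost in both arms had scores of 918 to 1137. Their nearest genes were Tnfrsf13b, 3110009E18Rik, Sycp1, Fam241b, Daam2, Ppp1r26, Abcg2, Fbxo45, Gm14326 and Kxd1. None was in any untreated or aphidicolin 14h list or in the count table. One, 77125 bp from Ppp1r26 (chr2:28369185-28369368), overlapped an ES cell peak, and one, inside Fbxo45 (chr16:32239523-32239992), a ubiquitin ligase component, was present in both 36h lists. Of all peaks lost in both arms 3.83% overlapped an ES cell peak, 0.419% were in both 36h lists and 0.373% in all 3 untreated 14h lists. The strongest lay 25836 bp from Tnfrsf13b (chr11:61100201-61100447), the receptor TACI of B cells. Gm14326 is a predicted gene, and its peak scored 930 in the nascent arm and 6631 in the mature arm, in lists whose score scales differ.

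Genes were compared by the number of peaks in their locus, the gene model with 10 kb on each side, with all 4 lists cut to 177275 peaks. Of 18719 genes with a peak, 3430 held more at 12h in both arms, a background of 18.3%, and 2307 held fewer, a background of 12.3%. With full lists 2681 genes held more (14.3%) and 1958 fewer (10.4%). The median change over the 18719 genes was 0 in each arm. The background was not matched for gene length or peaks per locus. At 6h in the nascent arm the 26 fibroblast surface and matrix loci held 319 peaks and the 16 ubiquitous loci 88. The part of such differences in the shares of the gene lists below was not tested. The 10 genes with the largest rise had 103 peaks at 12h and 92 at 6h at Adamtsl1, a secreted matrix protein related to the ADAMTS proteases (104 and 92 in the mature arm), and 89 and 80 at Thsd4, a microfibril protein (89 and 75). Prex1 held 19 and 11 (21 and 12). The others included Tenm2, Zfhx3, Sfi1, Arid1b, Fras1 and Rbpms. At Sfi1 the arms differed more than the times, with 39 peaks at 12h and 28 at 6h in the nascent arm and 18 and 11 in the mature arm. In the full mature-arm lists, where the 6h list is the longer, some of these rises were absent. Adamtsl1 held 104 and 110 there and Thsd4 89 and 93, while Farp1 held 64 and 62 and Prex1 21 and 17.

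The 10 genes with the largest fall were led by Macrod2, an ADP-ribose hydrolase, with 116 peaks at 12h and 135 at 6h (109 and 125 in the mature arm), and Sox5, a SOX-family factor of cartilage and neurons, with 67 and 81 (65 and 80). Opcml, a cell adhesion protein, held 63 and 72 (59 and 73), and Kcnq5, a potassium channel, 45 and 58 (51 and 59). The others were Atrnl1, Cacna2d1, Mast4, Pde4d, Sema6d and Arhgap24. These are long genes: the median gene model was 650 kb among those with the largest fall and 382 kb among those with the largest rise, against 20.9 kb over all genes tested, and the ranking by number of peaks favours length.

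Peaks at gene ends turned over little. A gene-end peak in both 12h lists and neither 6h list was found at 114 of 21887 genes (0.521%), and the reverse at 94 (0.429%). At 77 of the 114 (67.5%, 58.5 to 75.4%) and 25 of the 94 (26.6%, 18.7 to 36.3%) the ES cell list also had a gene-end peak. Both 36h lists had one at 59 of the 114 and at 4 of the 94. Of all 21887 genes 72.2% had a gene-end peak in the ES cell list. The 36h lists had one at 67.7% (nascent arm) and 68.0% (mature arm) of all genes. Genes that gained a gene-end peak were thus not above all genes in either respect. Among 305 genes of 23 lists for fibroblast, reprogramming, cell-cycle and other cell types, 1 gained its gene-end peaks and 2 lost them. Tcf21, a bHLH factor of mesenchymal progenitors, had a gene-end peak at 12h only and still in one 36h list. Dnmt3l, a cofactor of DNA methylation in germ and ES cells, and Mmp13, a collagenase, had theirs at 6h only.

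All 26 genes of fibroblast surface and matrix had a peak within 1 kb of either gene end in each of the 4 lists, against 67.5% of all 21887 genes. In each 36h list 24 of them had one, against 67.7 and 68.0% of all genes. In ES cells 19 had one, near the 72.2% of all genes. Mmp3 is one of the 26, and its promoter window was among the lost ones, while the count takes a peak anywhere within 1 kb of either end. Of the 10 macrophage and blood markers, 7 had one at 12h and 7 at 6h in the nascent arm. In the mature arm 6 had one at 12h and 7 at 6h. Over all genes the shares at 12h and 6h were 70.8 and 68.8% (nascent arm) and 69.6 and 70.2% (mature arm). Ptprc (CD45), Adgre1 and Tyrobp were without one at 12h in the nascent arm. Naive pluripotency genes had a gene-end peak at 10 of 17 at 12h and 8 of 17 at 6h in the nascent arm and at 8 of 17 at each time in the mature arm, against 16 of 17 in ES cells. Nanog, Esrrb, Nr5a2, Dppa3, Dppa5a, Tcl1 and Tdh had none at 12h in the nascent arm.

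The AP-1 and immediate early list also holds genes outside the AP-1 family, such as Egr1, Dusp1 and Myc. It had 3 of 18 genes with more peaks (16.7%, against 18.3% of all genes) and 4 with fewer (22.2%, against 12.3%). Junb, an AP-1 subunit, held 8 peaks at 12h and 5 at 6h (6 and 5 in the mature arm) and Jun 5 and 2 (3 and 2). Batf held 4 and 3 (5 and 3), while Egr3, an immediate early factor, held 6 and 7 (5 and 8). The other genes with fewer were Batf3, Maff and Myc. Fosl1 held 7 at each time in the nascent arm and 5 and 7 in the mature arm.

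In the TEAD and YAP pathway 5 of 12 genes held more (41.7%) and 1 fewer (8.33%), against 18.3 and 12.3% of all genes. Lats2, a kinase that inhibits YAP, held 18 and 16 (21 and 16), Amotl2 9 and 8 (9 and 6) and Ajuba 9 and 5 (9 and 8). Tead1, the DNA-binding partner of YAP, held 40 at 12h and 46 at 6h (41 and 43). In the full nascent-arm lists Tead1 held 51 and 46, the other way. Within the Tead1 locus both arms gained 4 peaks and lost 4, and 3 of the gained and 0 of the lost overlapped ES cell peaks. Of all peaks that both arms gained or lost, 36.7 and 3.83% did.

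Runx1, which keeps fibroblast identity, held 47 peaks at 12h and 39 at 6h (47 and 42 in the mature arm). In the full mature-arm lists Runx1 held 47 and 50, the other way. Both arms gained 6 peaks there and lost 1, and 3 of the 6 were in both 36h lists, against 59.3% of all peaks gained in both arms. Runx3 held 14 and 11 (15 and 12), and 2 of 4 RUNX genes in all held more, against 18.3% of all genes. Of 4 CEBP genes only Cebpd, with 4 and 2 (3 and 2), held more in both arms. Cebpb held 6 at each time in the nascent arm and 7 and 5 in the mature arm.

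In the fibroblast surface and matrix list 10 of 26 genes (38.5%) had more and 3 fewer, against 18.3 and 12.3% of all genes. The fibrillar collagen genes Col5a1 with 35 and 32 (32 and 28) and Col1a2 with 18 and 15 (16 and 14) were among those with more. So were Fn1, fibronectin, with 18 and 16 (18 and 15), and Sparc with 15 and 12 (15 and 13). In the full mature-arm lists Col5a1 held 36 and 41 and Sparc 15 and 13. The 3 with fewer, at equal lengths, were Dcn with 5 and 6 (3 and 5), Timp1 with 5 and 8 (6 and 7) and Mmp3 with 1 and 2 (1 and 2). Col1a1 held 15 and 10 (13 and 12), but this locus carries the transgene. Thy1 held 4 and 5 (5 and 5). The list as a whole held 337 peaks at 12h and 319 at 6h (328 and 309). Peaks that both arms gained numbered 18 and those lost 16 in these loci, of which 7 of the lost were at Col5a2.

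Mesenchymal transcription factors were mixed, with 2 of 15 holding more (13.3%) and 3 fewer (20.0%), against 18.3 and 12.3% of all genes. Zeb1, a repressor of epithelial genes, held 23 at 12h and 26 at 6h (25 and 26) and Meox2 10 and 12 (10 and 14). Zeb2 held 24 and 23 (25 and 23) and Snai1 9 and 6 (9 and 7). Snai2 held 4 and 3 (3 and 4) and Twist1 5 and 4 (3 and 5), in opposite directions in the 2 arms. Of actin and focal adhesion genes 3 of 16 held more (18.8%, near the share of all genes) and 0 fewer. The 3 were Tpm1, tropomyosin, at 14 and 11 (18 and 11), Itgb1 at 13 and 10 (14 and 13) and Tagln at 6 and 5 (6 and 4). In the TGF-beta pathway 2 of 13 held more (15.4%) and 1 fewer (7.69%). The receptor genes Tgfbr2 with 19 and 17 (19 and 18) and Tgfbr1 with 13 and 12 (13 and 12) held more, and the ligand gene Tgfb2 with 16 and 17 (16 and 17) fewer.

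Epithelial loci had 5 of 18 genes with more (27.8%) and 1 with fewer (5.56%), against 18.3 and 12.3% of all genes. Grhl2, an epithelial transcription factor, held 15 peaks at 12h and 11 at 6h (15 and 10), Cdh1, E-cadherin, 16 and 13 (15 and 13), Grhl3 8 and 4 (5 and 4) and Cldn7, a tight junction protein, 2 and 1 (3 and 1). All 7 peaks that both arms gained in these loci were in both 36h lists, 6 were in all 3 untreated 14h lists, and 3 overlapped an ES cell peak. Over all peaks gained in both arms these shares were 59.3, 33.5 and 36.7%. Both arms lost 3 peaks in these loci, 1 each at Cdh1, Krt8 and Krt18. None of the 3 was at 36h in both arms, where only 0.419% of all peaks lost in both arms were found. At Cdh1 no single peak was gained in both arms, and the full mature-arm lists held 15 peaks there at 12h and 16 at 6h. Epcam held 1 peak in each list, and Krt8 5 and 5 (6 and 7).

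Of the general pluripotency list 5 of 14 held more (35.7%) and 0 fewer, against 18.3 and 12.3% of all genes. Among those with more were L1td1 with 6 and 3 (6 and 4), Tdgf1, the EGF-CFC coreceptor CRIPTO, with 5 and 3 (4 and 3), and Sox2 with 4 and 2 (4 and 3). Sall4 held 4 and 5 (5 and 4) and Lin28a 2 and 2 (1 and 2). In the naive list 4 of 17 held more (23.5%) and 2 fewer (11.8%), not far from the shares of all genes. Fgf4 held 4 and 1 (3 and 1) and Klf4 8 and 6 (8 and 6), while Esrrb held 11 and 13 (10 and 12) and Klf5 3 and 4 (4 and 6). ES cells held 45 peaks at Esrrb. Nanog held 2 peaks in all 4 lists, against 6 in ES cells, and Zfp42 1 and 0 (1 and 1), against 10 in ES cells. Copies of Sox2 and Klf4 are part of the transgene, and their part in these peaks was not tested. Of the formative epiblast list 0 of 13 held more and 2 fewer, namely Etv4 and Sall2, each with 5 or 6 peaks at 12h.

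The counts of the next lists stand beside 18.3% of all genes with more and 12.3% with fewer. Of the other Kruppel-like factors 1 of 10 held more, Klf9 with 11 and 8 (11 and 7). In that list 2 held fewer, Klf1 and Klf12, the second with 40 and 42 (35 and 44). The p53 targets had 0 of 14 with more and 3 with fewer, Bbc3, Btg2 and Phlda3. Senescence and inflammatory secretion had 1 of 14 each way, Il6 with 4 and 3 (4 and 3) and Il1b with 1 and 2 (1 and 2). In S phase genes 5 of 16 held more and 2 fewer, with Cdc6, a replication licensing factor, at 10 and 7 (9 and 7). Glycolysis genes had 4 of 13 with more and 1 with fewer, with Aldoa at 6 and 4 (6 and 5) and Pfkp at 11 and 14 (12 and 14). Mitosis genes had 1 of 14 each way, Ttk with more and Ccnb1 with fewer, and ubiquitous genes 0 of 16 with more and 2 with fewer, Ywhaz and Rps6.

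Markers of other cell types also varied, beside 18.3% of all genes with more and 12.3% with fewer. Endothelial markers had 4 of 10 with more and 1 with fewer, with Sox17 at 2 and 1 (2 and 0) and Emcn at 7 and 9 (6 and 10). Macrophage and blood markers had 2 of 9 with more and 0 fewer, Itgam with 5 and 4 (7 and 5) and Spi1 with 7 and 6 (9 and 8). Muscle markers had 2 of 8 with more, Mymk and Myf6, and neural markers 2 of 10 with more, Pax6 with 7 and 4 (6 and 3) and Nes, and 1 with fewer, Map2 with 31 and 36 (32 and 38). Lists of 4 to 26 genes move by 1 or 2 genes, and the share of other cells in the cultures was not tested.

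**Figure D4:**
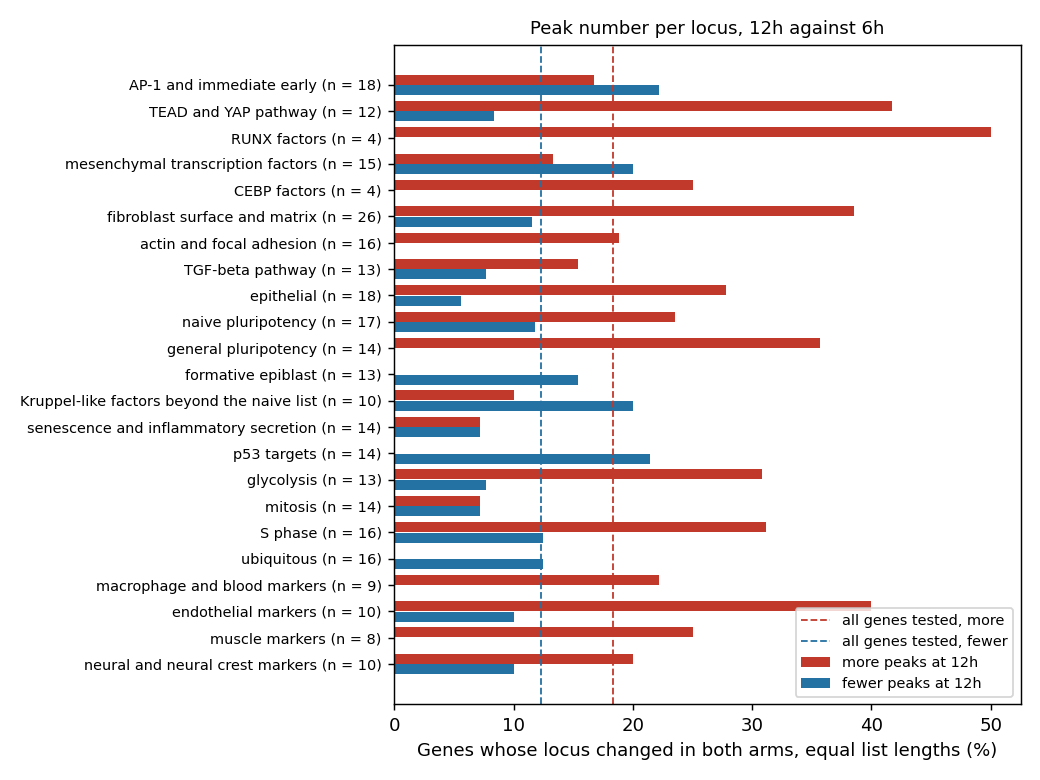
Percent of tested genes in each list whose locus (gene model with 10 kb on each side) held more (red) or fewer (blue) peaks at 12h than at 6h in both arms, with all 4 bulk lists cut to equal length; dashed lines give the same over all 18719 genes, 18.3 and 12.3%. Fibroblast surface and matrix stands at 38.5% with more and 11.5% with fewer. The lists are not matched to all genes in peaks per locus.

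Over all list genes together, the loci held 130 peaks gained in both arms and 117 lost. An ES cell peak covered 55 of the gained and 6 of the lost, against 36.7 and 3.83% of all peaks that both arms gained or lost. At 36h both lists held 74 of the gained and 0 of the lost, against 59.3 and 0.419% of all such peaks. All 3 untreated 14h lists held 46 of the gained and 0 of the lost, against 33.5 and 0.373% of all such peaks. At the naive pluripotency loci 3 of 4 gained peaks and 2 of 7 lost peaks overlapped ES cell peaks.

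The level of accessibility could be followed in the 14h count table, which holds 139000 regions with a peak in all 3 lists of either group. Regions over gained peaks alone numbered 15696, for 40128 gained peaks, and regions over lost peaks alone 1052, for 22340 lost peaks, so that most lost sites are not in it. Levels are medians over regions of log2(CPM per kb + 0.1). In aphidicolin libraries the gained regions stood at 3.27, 3.36 and 3.39 and the lost ones at 3.18, 3.25 and 3.26. In untreated libraries the gained regions stood at 3.00, 3.08 and 3.16 and the lost ones at 2.44, 2.58 and 2.67. In every library the gained regions were above the lost ones and below the kept ones, which stood at 3.86 to 3.92 with aphidicolin and 3.67 to 3.74 untreated.

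The choice of regions by the authors sets much of these levels. Of the lost regions 852 (81.0%) had entered the table only through the aphidicolin lists, against 43.8% of gained and 20.1% of kept regions, so that a low untreated level and a high aphidicolin level of lost regions were partly selected. Over the whole table gained regions exceeded lost ones by 0.11 ± 0.02 with aphidicolin and by 0.52 ± 0.04 untreated (log2, SD, n = 3 each), a difference of -0.41 that is given without a test for this reason.

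Among the regions with a peak in all 6 lists, 8214 over gained and 177 over lost peaks, the differences were smaller. Gained regions there averaged 3.54 ± 0.05 with aphidicolin and 3.39 ± 0.08 untreated, and lost regions 3.49 ± 0.04 and 3.20 ± 0.11 (SD, n = 3 each). Gained exceeded lost regions by 0.03 to 0.08 in aphidicolin and by 0.16 to 0.22 in untreated libraries. With aphidicolin the gained regions were higher by 0.15 and the lost ones by 0.29, beside 0.15 for all such regions. In the untreated libraries the gained regions stayed above the lost ones in 3 of 3, by 0.19 in place of 0.52, and a two-sided exact sign-flip test over 3 libraries cannot give less than p = 0.25. Over the whole table the lower quartile was 3.26 with aphidicolin against 2.89 untreated, and the upper quartile 4.38 against 4.32. Of all its regions 26.1% had entered only through the aphidicolin lists, so that the higher lower quartile was partly selected too. Depth was 55158844 to 78677381 counts with aphidicolin and 41183769 to 49440524 untreated, and its part was not tested.

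**Figure D5:**
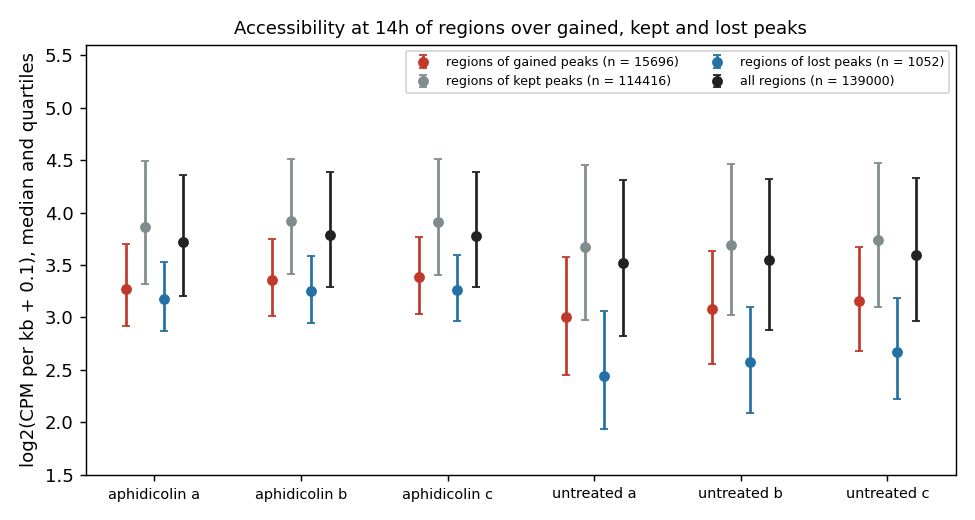
Median and quartiles (points and bars) over regions of log2(CPM per kb + 0.1) in the 3 aphidicolin and 3 untreated 14h libraries, for regions over gained, kept or lost peaks of the 12h and 6h bulk lists and for all 139000 regions; 81.0% of the lost regions entered through the aphidicolin lists alone. Lost regions stand at 3.18 to 3.26 with aphidicolin and 2.44 to 2.67 untreated, gained regions at 3.27 to 3.39 and 3.00 to 3.16.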

How the data were processed

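Per the submitters' processing notes, reads were aligned to mm10, with Bowtie2 2.2.5, MACS2 2.2.0, cutadapt 2.2.0, bedtools 2.26.0, bcl2fastq 2.19.1 and SAMtools 1.4.1 named. No source used here states parameters or a shift for the transposase cut. The authors deposited peak lists with a score for each peak, none below 30, called on merged replicates in the reprogramming course, per the peak names in the files. The scores were used to rank or filter within a list, and the same fixed score ranges were applied to the 12h and 6h lists. Score scales differ between lists, so that a range may not mean the same strength in each. The nascent-arm bulk lists were assigned by name and by elimination. A table of raw counts deposited by the authors covers 139000 regions in 6 libraries. Its columns name a group and a number that no source ties to a sample, and the libraries are given in that order. Depth behind the merged lists is unknown. Replicates are not stated to be separate cultures, so p-values measure only the spread between samples.

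Overlaps of 1 bp or more, nearest genes, locus counts, Wilson intervals and exact tests were computed with Python 3.11.15, numpy and pandas, and checked on simulated intervals. CPM is relative to each column's total, and the level per kb has a pseudocount of 0.1. Ties at a list's end were broken with a fixed seed. Genes are 21887 protein-coding models of GRCm38.p6, without strand. Members, gene lists and tests were chosen with earlier results of these data known. Named genes are the 10 strongest peaks each way held by both arms, the 10 loci with the largest rise and fall in the smaller of both arms' changes, up to 4 changed genes a list, list genes that gained or lost their gene-end peaks, and 19 set genes; 2 of these results are not reported here. Promoter windows and motifs were added after the files were seen.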

Additional observations from a re-analysis of the deposited data

How the results depend on the processing

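No paired analysis was possible because the 2 times have 1 merged list each and the count columns' numbers are not tied to samples; the fit with a replicate block was not run. The gained share of 12h peaks (20.2%) became 15.0% at equal list lengths, also with absence judged against the full list, 17.7% among the 50000 highest-scoring peaks, 0.046% among these with absence judged against the full list, 22.7% with 50% of the peak covered, 20.6% at scores of 100 or more, 8.85% in the mature arm, 14.0% there at equal lengths and 5.02% in both arms. The lost share of 6h peaks (12.6%) became 16.8% at equal lengths, 18.4% among the 50000 highest-scoring peaks, 0.034% among these with absence judged against the full list, 17.1% with 50% of the peak covered, 11.5% at scores of 100 or more, 19.1% in the mature arm, 13.8% there at equal lengths and 7.27% in both arms. The share of gained above lost peaks at gene ends (2.59 points) became 1.86 at equal lengths, 10.2 among the 50000 highest-scoring peaks, 2.15 at equal lengths with absence judged against the full list, 1.65 within 500 bp, 3.50 within 2 kb and 1.99 within 1 kb of a transcription start. It reversed to -1.53 among the 50000 highest-scoring peaks with absence judged against the full list, where 23 gained and 17 lost peaks were left. The ES cell difference (25.9 points) became 26.7 at equal lengths, 41.9 among the 50000 highest-scoring peaks, 28.7 and 46.3 with absence judged against the full list (equal lengths and 50000 peaks), 22.8 in the mature arm, 20.9 there at equal lengths, 32.9 in both arms, 25.0 away from gene ends and 11.1 against the 50000 highest-scoring ES cell peaks. Genes with more peaks numbered 3430, against 2681 with full lists, 5888 with 50 kb on each side, 6921 in the nascent arm alone and 6327 in the mature arm alone. Genes with fewer numbered 2307, against 1958 with full lists and 4970 and 4818 in the 2 arms alone. Where values moved, the cause was not tested, beyond the fewer peaks or the single arm that the alternative itself sets. Joining peaks within 200 bp and the start-site reference were chosen after seeing the data, as were both-arm classes for the 14h measures and regions with a peak in all 3 untreated lists or, for the untreated level, in all 6. The 14h differences kept their direction in all alternatives run, leaving out each library included: 27.9 to 45.6 points, 0.16 to 0.67 and -0.53 to -0.12 (log2). The low ends of both levels (0.19 and -0.14 in all 6 lists, 0.16 and -0.12 in all 3 untreated lists, in place of 0.52 and -0.41) come with regions not selected by the aphidicolin lists alone. With 3 libraries no p can pass 0.05, and sites near the calling threshold limit the lists.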

Other observations

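Gained and lost peaks were spread over all 20 chromosomes counted (Y left out). The gained share of 12h peaks was between 18.4% on chromosome 13 and 23.7% on chromosome X, and the lost share of 6h peaks between 10.6% on chromosome 11 and 14.6% on chromosome 3.

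The EdU-captured chromatin of the same course held few of either class. Captured mature chromatin at 12h covered 5.33% of gained peaks and 1.46% of lost peaks, against 38.9% of kept 12h peaks. Captured nascent chromatin at 12h covered 0.299% of gained and 0.0627% of lost peaks, against 12.8% of kept peaks. The 12h captured lists held 62704 (mature) and 20968 (nascent) peaks and the bulk list 199056, and most gained peaks had low scores. Depth behind the captured lists is unknown, and its part in these shares was not tested.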
